A study of Mus musculus with 33 samples.

Results

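The genes described here are 10 genes of the oxygen-response and glycolysis pathways, taken by symbol from the 52631 genes of a mouse RNA-sequencing table: Egln3, Bnip3, Slc2a1, Slc2a3, Hk2, Ldha, Pdk1, Pgk1, Car9 and Ankrd37. Each symbol matched 1 row, and all 10 genes passed the filter on low values together with 16508 genes in all. Embryonic stem cells of the strain 129S2/SvPas were treated with all-trans retinoic acid (10 µM) plus CHIR (5 µM), an inhibitor of the kinase GSK3 (groups RA/CHIR-4d, RA/CHIR-7d, RA/CHIR-10d and RA/CHIR-16d), or with retinoic acid alone at the same dose (RA-4d, RA-7d, RA-10d and RA-16d). Cells of both arms were plated on gelatin in medium with 15% serum and the inducers for 10 days, and then kept in medium with 10% serum without inducers for 6 days. The day-16 groups therefore differ from the day-10 groups in time, in the inducers and in the serum, and these cannot be told apart. The other groups were an extraembryonic endoderm line (XEN) and a smooth muscle line (SMC), both in 15% serum, and the undifferentiated cells (mES), which grew on inactivated mouse embryonic fibroblasts with 1000 U/mL LIF and 15% serum. Each of the 11 groups has 3 libraries. Whether they are independent cultures is not labelled, and the spread behind the p-values may therefore be technical. The labels name no hypoxic treatment.

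The labelled identities were set against marker lists. The summed level of 4 stem cell markers was 2178 to 2756 FPKM in mES, and that of 4 smooth muscle markers was 17101 to 17721 FPKM in SMC. The 6 extraembryonic endoderm markers summed to 634 to 677 FPKM in XEN and to 997 to 1096 FPKM in RA/CHIR-16d, and Foxa2, the forkhead factor among them, was listed at 0 in SMC. RA-16d held 7079 to 7969 FPKM of the smooth muscle markers. RA/CHIR-16d also held 174 to 184 FPKM of the stem cell markers, against 7.44 to 9.52 FPKM in RA-16d. Most of the RA/CHIR-16d sum was Pou5f1 (mean 144 FPKM), with Zfp42 at 27.2, Nanog at 3.27 and Sox2 at 3.07 FPKM. In mES the means of Pou5f1, Zfp42, Nanog and Sox2 were 1326, 451, 377 and 223 FPKM. The SMC line also held 10618.7 to 10955.5 FPKM of 7 fibroblast markers. FPKM are fragments per kilobase of transcript, scaled to the fragments of the library, so levels of different genes can be set side by side per length. Steps of single fragments in low values gave relative depths of 0.659 to 1.17, with mES replicate 1 at 1, and the number of fragments behind a single value is unknown.

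When oxygen is plentiful, prolyl hydroxylases mark the hypoxia-inducible factors (HIF) for destruction through the VHL ubiquitin ligase. When it is scarce the factors persist, pair with Arnt and bind a short element with the core ACGTG or GCGTG. Their known targets include Egln3, itself a prolyl hydroxylase, and Bnip3, a receptor for the removal of mitochondria. They also include the glucose transporters Slc2a1 (GLUT1) and Slc2a3 (GLUT3), hexokinase Hk2, which traps glucose in the cell, and Pgk1, an ATP-forming step of glycolysis. Ldha turns pyruvate into lactate, Pdk1 holds pyruvate back from the mitochondrion by inhibiting pyruvate dehydrogenase, Car9 is a carbonic anhydrase of the cell surface, and Ankrd37 is an ankyrin-repeat protein. Pluripotent cells and many dividing cells also express glycolytic genes strongly in ample oxygen.

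All 10 are protein-coding genes in GENCODE M21 on GRCm38. The glucose uptake and glycolysis genes are Slc2a1 at chr4:119108711-119137983 (plus strand), Slc2a3 at chr6:122727809-122801640 (minus strand), Hk2 at chr6:82725025-82774454 (minus strand) and Pgk1 at chrX:106187100-106203699 (plus strand). The genes of pyruvate and acid handling are Ldha at chr7:46841475-46855627 (plus strand), Pdk1 at chr2:71873224-71903858 (plus strand) and Car9 at chr4:43506966-43513729 (plus strand). The others are Egln3 at chr12:54178981-54203860 (minus strand), Bnip3 at chr7:138890836-138909519 (minus strand) and Ankrd37 at chr8:45996902-46005707 (minus strand).

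To show how the element's core lies before the genes that were higher at day 16 than at day 10 in the RA arm, the 250 bases before the transcription start are given for 5 of them, from RefSeq's table on GRCm38.p6. They are Bnip3 (chr7:138909507-138909756, minus strand), Ldha (chr7:46845554-46845803, plus strand), Pgk1 (chrX:106186850-106187099, plus strand), Ankrd37 (chr8:45999851-46000100, minus strand) and Egln3 (chr12:54203875-54204124, minus strand). Each is written 5′ to 3′ on the gene's strand, and capitals mark ACGTG or GCGTG on either strand, so that the reverse strand reads CACGT or CACGC. A run such as CACGTG holds a match on each strand. The RefSeq starts need not be those of the GENCODE genes above. The Ldha and Ankrd37 windows lie inside those genes, and the Bnip3 window overlaps the start of its gene.
Bnip3: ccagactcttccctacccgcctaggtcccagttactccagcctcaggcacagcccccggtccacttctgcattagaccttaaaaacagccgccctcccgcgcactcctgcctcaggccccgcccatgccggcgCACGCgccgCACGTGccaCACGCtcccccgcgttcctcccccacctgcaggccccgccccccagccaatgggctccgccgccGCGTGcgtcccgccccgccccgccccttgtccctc
Ldha: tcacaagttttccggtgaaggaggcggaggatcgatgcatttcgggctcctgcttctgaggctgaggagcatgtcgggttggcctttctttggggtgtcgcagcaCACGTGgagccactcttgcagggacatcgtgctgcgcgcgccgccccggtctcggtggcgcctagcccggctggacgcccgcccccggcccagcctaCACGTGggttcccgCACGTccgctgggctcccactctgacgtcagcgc
Pgk1: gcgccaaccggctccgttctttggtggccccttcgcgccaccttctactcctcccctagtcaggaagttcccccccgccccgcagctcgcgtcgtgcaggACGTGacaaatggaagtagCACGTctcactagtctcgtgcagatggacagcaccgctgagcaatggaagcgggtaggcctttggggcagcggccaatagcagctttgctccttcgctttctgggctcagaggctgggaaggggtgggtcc
Ankrd37: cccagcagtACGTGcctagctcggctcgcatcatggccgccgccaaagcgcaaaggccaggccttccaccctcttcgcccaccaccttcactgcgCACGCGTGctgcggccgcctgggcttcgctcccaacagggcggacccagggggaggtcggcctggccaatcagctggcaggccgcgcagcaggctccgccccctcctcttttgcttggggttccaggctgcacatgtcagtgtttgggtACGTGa
Egln3: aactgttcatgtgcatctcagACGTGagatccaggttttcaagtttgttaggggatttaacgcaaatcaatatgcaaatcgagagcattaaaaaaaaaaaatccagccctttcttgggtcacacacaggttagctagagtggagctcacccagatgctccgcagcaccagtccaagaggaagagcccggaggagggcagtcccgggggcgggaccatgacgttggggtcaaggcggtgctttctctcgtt
A second Ldha window in the table, not shown, holds 1 match and no ACGTG, the Car9 window holds 1, and the windows of Pdk1 hold 1 and 0. The windows of Slc2a1 and Hk2 hold 2 matches each, and these genes were called in neither arm at day 16 over day 10. Of those shown, the Bnip3 and Ldha windows hold 5 matches each, the Ankrd37 window 4, the Pgk1 window 2 and the Egln3 window 1. The table has 11 windows for 9 of the members, and 8 of the 11 hold ACGTG and 10 hold either core. Of the 32851 windows of the same length in the table, 16.6% hold ACGTG, 38.6% hold either core and 2.58% hold 4 or more matches. Among the 14590 windows of genes tested here, the shares were 20.8%, 53.8% and 4.49%. A match describes these letters and is not a binding site.

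A library of the mES group stood apart for these genes. mES replicate 3 was the highest of the 3 mES libraries for all 10 members, against 39.1% of all genes tested. Egln3 was at 10.7, 11.99 and 29.97 FPKM in mES replicates 1, 2 and 3, and Bnip3 at 53.7, 52.0 and 129 FPKM. Ldha was at 927, 860.2 and 1741 FPKM in the same libraries, and Slc2a3, the member that differed least, at 409, 435 and 495 FPKM. On the scale of log2(FPKM + 1), replicate 3 exceeded the mean of the other 2 by a median of 0.72 over the members and by 0.00 over all genes tested. It was also the highest mES library for 16 of 22 other HIF target genes and 14 of 18 other glycolytic enzymes, for 6 of 7 fibroblast markers, 5 of 6 extraembryonic endoderm markers and 2 of 4 stem cell markers. Its median excess was 0.51 over the fibroblast markers and 0.54 over the endoderm markers. The mES cells grew on fibroblast feeders, and the part of other cells in these levels was not tested. The members' comparisons with mES are given with and without this library. In other groups, RA-16d replicate 2 was the lowest library for 9 of 10 members (33.9% of all genes tested), RA-16d replicate 1 the highest for 7 (32.6%) and SMC replicate 2 the highest for 8 (30%).

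**Figure D1:**
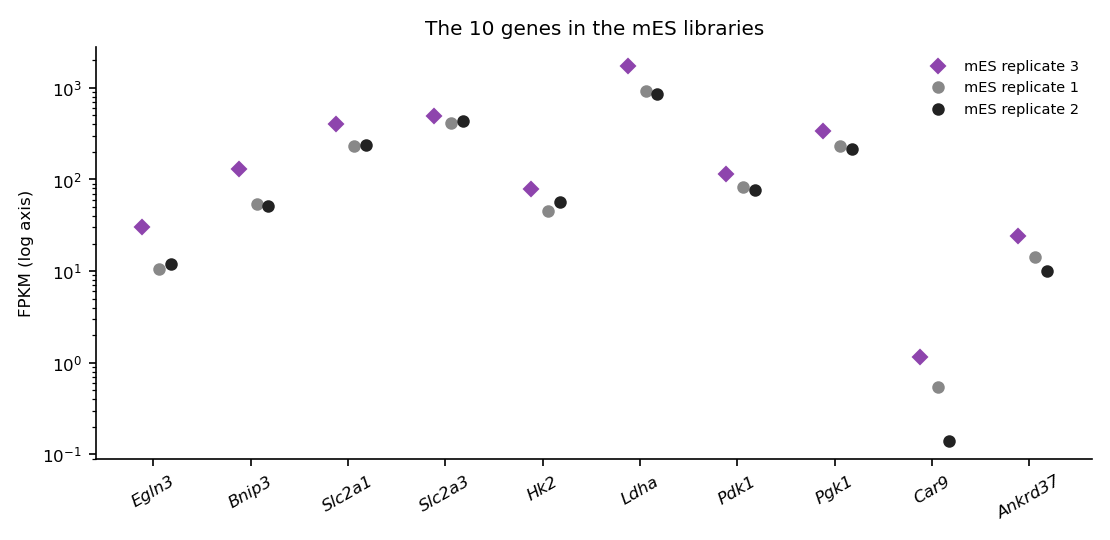
Level in FPKM, on a log axis, of each of the 10 genes in the 3 mES libraries, with replicate 3 as diamonds and replicates 1 and 2 as circles. The diamond is the highest point for all 10 genes, with Ldha at 1741 FPKM against 927 and 860.2 FPKM.

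The genes spanned a wide range of levels and differed in how far they varied between groups. Ldha had the highest mean of the 10 genes in each of the 11 groups, with 172 ± 3.36 FPKM in RA-10d to 2107 ± 52.0 FPKM in SMC (SD, n = 3 each). Slc2a3 varied most among the members detected in all groups, with a mean of 447 ± 44.0 FPKM in mES and 3.97 ± 0.320 FPKM in SMC, a ratio of 112. Pdk1 followed with a ratio of 39.4 between mES and XEN, and Hk2 varied least, with a ratio of 3.35 between mES and RA-16d. Car9 was low everywhere, at 4.29 ± 1.10 FPKM in RA-16d, under 1.5 FPKM on average in every other group, and listed at 0 in all 3 XEN libraries. Egln3, Slc2a1, Slc2a3, Hk2, Pdk1 and Ankrd37 had their highest mean in mES, Bnip3, Ldha and Pgk1 in SMC, and Car9 in RA-16d.

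**Figure D2:**
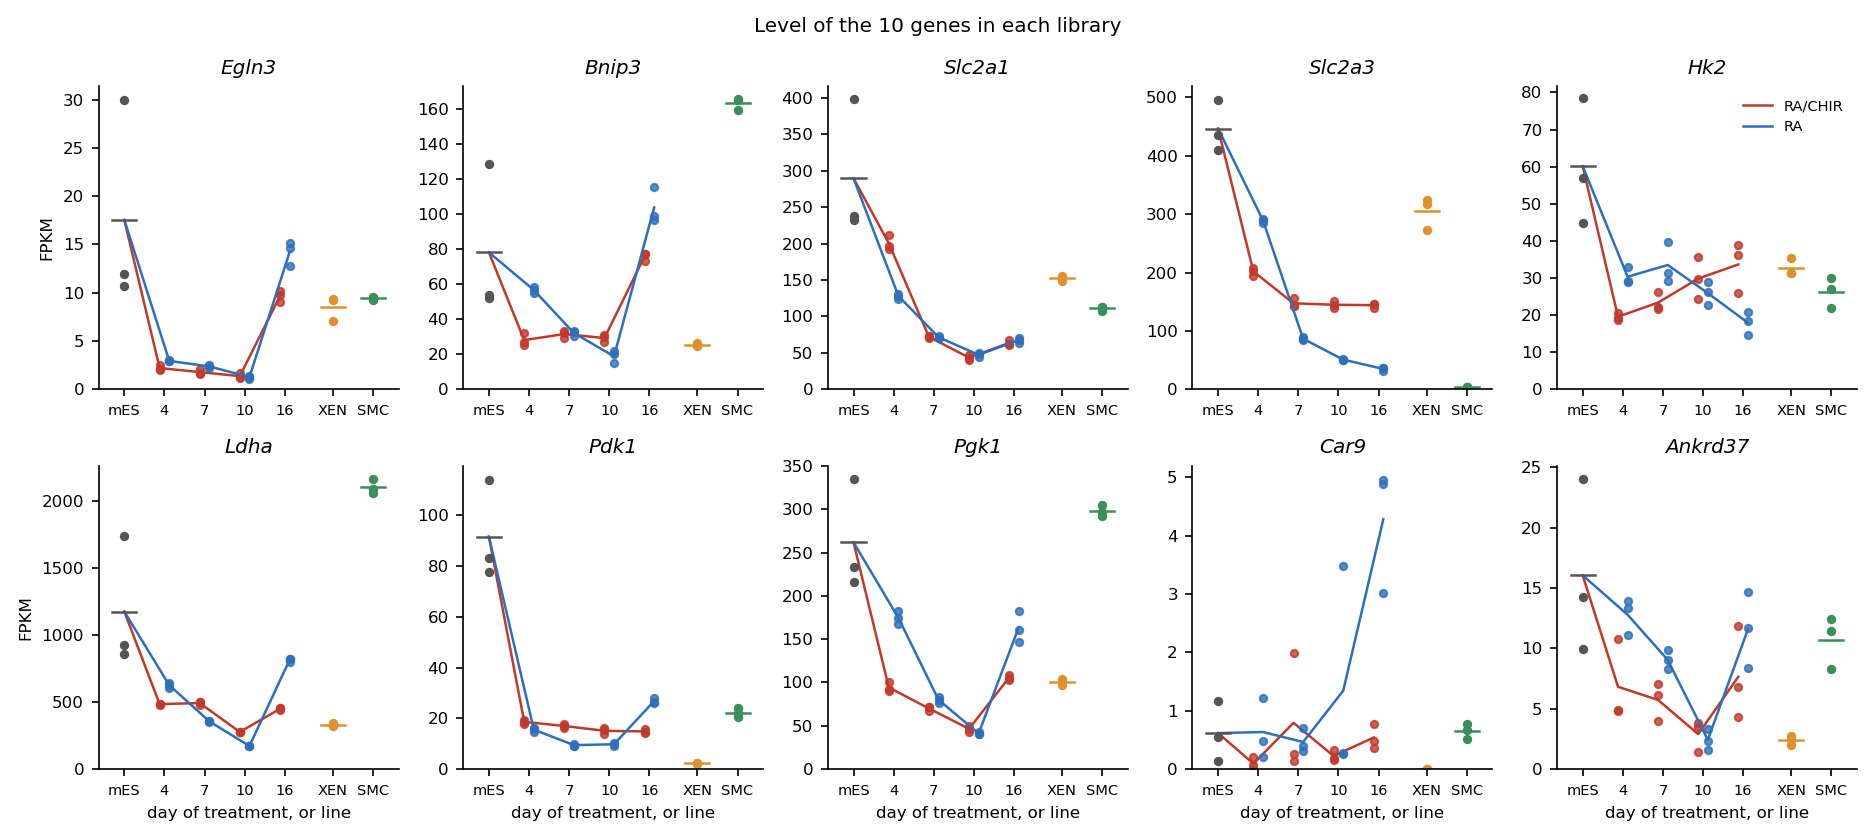
FPKM of each gene in each library, with mES at the left, then the days of the RA/CHIR arm (red) and of the RA arm (blue), and the XEN and SMC lines at the right; points are libraries, lines join group means and short bars mark the means of mES, XEN and SMC. Egln3, Bnip3, Ldha, Pgk1 and Ankrd37 show a low mean at day 10 and a higher one at day 16 in both arms, and Slc2a3 runs flat in the RA/CHIR arm at about 144 to 147 FPKM after day 4.

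When the groups are put in order of their mean, the libraries of neighbouring groups separate for some genes and not for others. Of the 10 neighbouring pairs, 1 overlapped for Ldha, 3 for Slc2a3 and 4 each for Slc2a1, Pdk1 and Pgk1. For Ldha the order from the highest was SMC, mES, RA-16d, RA-4d, RA/CHIR-7d, RA/CHIR-4d, RA/CHIR-16d, RA-7d, XEN, RA/CHIR-10d and RA-10d, and only RA/CHIR-7d and RA/CHIR-4d had overlapping libraries. For Bnip3, RA-16d, mES and RA/CHIR-16d followed SMC, and the mES libraries overlapped both. The pairs overlapped for 6 of 10 for Bnip3, 7 for Egln3, 8 for Hk2, 9 for Ankrd37 and 10 for Car9, so the order of groups for Car9, Ankrd37 and Hk2 lies largely within the spread of their libraries.

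The step out of the stem cell state was taken first. Changes are log2 fold changes on the log2(FPKM + 1) scale ± SE from limma, and a gene counts as called where the p-value adjusted over all genes tested is under 0.05 and the change is at least 1 in size. In RA/CHIR-4d, 8 of 10 members were lower than in mES and none was higher, and 18.2% of all genes tested were called. The count was 6 after quantile normalization, where Slc2a3 stood at -0.98 and Ldha at -0.88, and 7 when only the groups compared were fitted, where Ankrd37 was not called at -1.12. In RA-4d, 3 of 10 were lower and none was higher, with 23.4% of all genes called. Pdk1 showed the largest fall in RA-4d, to 15.7, 14.8 and 16.1 FPKM, with 19.3, 17.8 and 18.7 FPKM in RA/CHIR-4d, against 83.1, 77.6 and 114 FPKM in mES. The change was -2.22 ± 0.09 for RA/CHIR-4d (adjusted p = 3.3e-17) and -2.46 ± 0.09 for RA-4d (adjusted p = 2.4e-18). Egln3 fell to 2.52, 2.11 and 1.98 FPKM in RA/CHIR-4d and to 3.03, 2.90 and 2.88 FPKM in RA-4d. For Pdk1 and Egln3, each day-4 library of both arms lay below every mES library.

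Without mES replicate 3, 5 members remained called lower in RA/CHIR-4d (Egln3, Slc2a3, Hk2, Pdk1 and Pgk1) and 2 in RA-4d (Egln3 and Pdk1). The change of Egln3 was then -1.95 for RA/CHIR-4d and -1.64 for RA-4d, beside -2.39 and -2.09 with all libraries. In RA/CHIR-4d, Bnip3 stood at -0.90 without that library and at -1.32 with it, Ldha at -0.88 and at -1.20, and Ankrd37 at -0.81 and at -1.12. Ankrd37 was also under the fold required without RA/CHIR-4d replicate 2 (-0.96) or replicate 3 (-0.95). Bnip3 in RA-4d, at 56.8, 54.9 and 58.4 FPKM, lay above both other mES libraries. Slc2a1, the transporter of basal glucose uptake, fell by 1.13 ± 0.11 in RA-4d (adjusted p = 1.9e-09), to 128, 131 and 124 FPKM, and by 0.87 without mES replicate 3, which is under the fold required. In RA/CHIR-4d it was at 197, 193 and 212 FPKM, with a change of -0.48 that was past the adjusted p only, and of -0.23 without mES replicate 3.

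Among the other glycolytic enzymes, 5 of the 18 tested were lower and none was higher in RA/CHIR-4d than in mES, and 7 were lower and 1 was higher in RA-4d, beside the 18.2% and 23.4% of all genes called. Without mES replicate 3 the counts were 5 lower and 1 higher in RA/CHIR-4d, and 7 lower and 1 higher in RA-4d. Pfkp, the platelet form of phosphofructokinase, changed by -2.73 in RA/CHIR-4d and by -3.51 in RA-4d, and Aldoc, an aldolase, by -2.63 and by -2.82. Without that library Pfkp stood at -2.39 in RA/CHIR-4d and -3.17 in RA-4d, and Aldoc at -2.61 and -2.81. Of 22 other HIF targets, 1 was higher and 2 were lower in RA/CHIR-4d, and 5 were higher and 4 lower in RA-4d. Without mES replicate 3, 2 were higher and 1 lower in RA/CHIR-4d, and 5 higher and 2 lower in RA-4d. P4ha2, a collagen prolyl hydroxylase, was higher in both, by 2.22 in RA/CHIR-4d and 2.44 in RA-4d, and by 2.49 and 2.71 without that library.

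Between day 4 and day 10, with the inducers present, 2 of 10 members were called lower in RA/CHIR-10d than in RA/CHIR-4d, with 8.01% of all genes called. In RA-10d, 6 of 10 were lower than in RA-4d, with 11.4% of all genes called, and no member was higher in either arm. Slc2a1 and Pgk1 fell in both arms. Slc2a1 fell to 47.4, 42.3 and 40.6 FPKM in RA/CHIR-10d (-2.18 ± 0.11, adjusted p = 2.0e-14) and to 48.2, 44.4 and 49.4 FPKM in RA-10d (-1.42 ± 0.11, adjusted p = 5.1e-11). By day 10 the arms overlapped for this gene. Pgk1 fell to 46.9, 43.3 and 49.2 FPKM in RA/CHIR-10d, against 89.7, 100.1 and 92.9 FPKM in RA/CHIR-4d, a change of -1.005 ± 0.10 that lies at the fold required and was -0.96 without RA/CHIR-4d replicate 2 or RA/CHIR-10d replicate 2. In the RA arm it fell to 40.3, 42.8 and 40.3 FPKM in RA-10d, against 174, 182 and 168 FPKM in RA-4d (-2.06 ± 0.10, adjusted p = 1.3e-15).

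The other members called lower in RA-10d than in RA-4d were Slc2a3 (-2.49), Ankrd37 (-2.04), Ldha (-1.86) and Bnip3 (-1.56). Ldha stood at 170.4, 176 and 170.3 FPKM in RA-10d, against 631, 643 and 606 FPKM in RA-4d. In the RA/CHIR arm it stood at 276, 275 and 281 FPKM at day 10, against 486, 482 and 487 FPKM at day 4, a change of -0.81 under the fold required. Bnip3 was at 14.8, 21.6 and 19.97 FPKM in RA-10d, against 56.8, 54.9 and 58.4 FPKM in RA-4d. In the RA/CHIR arm its libraries overlapped, at 29.9, 26.9 and 30.9 FPKM at day 10 and 32.1, 25.2 and 26.9 FPKM at day 4.

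The difference between the arms over this interval was tested directly, by subtracting the RA change from the RA/CHIR change, and 14.1% of all genes were called in that test. It was called for 4 members, all with a positive value. In the RA/CHIR arm Pgk1 was called lower, while Slc2a3 (-0.48), Ldha (-0.81) and Bnip3 (0.06) were not called. The differences were Slc2a3 (2.01 ± 0.09, adjusted p = 2.5e-15), Bnip3 (1.62 ± 0.27, adjusted p = 2.5e-05), Ldha (1.05 ± 0.19, adjusted p = 5.3e-05) and Pgk1 (1.05 ± 0.14, adjusted p = 6.2e-07). Ldha was at 0.998 after quantile normalization, just under the fold required. The arms differed already at day 4, where all 4 genes were below RA-4d in RA/CHIR-4d, past the adjusted p and under the fold required. These day-4 changes, which enter the differences, were -0.996 for Bnip3, -0.88 for Pgk1, -0.52 for Slc2a3 and -0.37 for Ldha. Day 10 was the day of the lowest mean for 5 of 10 members in the RA/CHIR arm and for 6 of 10 in the RA arm.

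At day 16, after the inducers were removed, 4 members were higher than at day 10 in both arms and 3 more in the RA arm. In RA/CHIR-16d, 4 of 10 members were higher than in RA/CHIR-10d and none was lower, with 14.8% of all genes called. In RA-16d, 7 of 10 were higher than in RA-10d and none was lower, with 9.17% of all genes called. The members called in both arms were Egln3, Bnip3, Pgk1 and Ankrd37, and Ldha, Pdk1 and Car9 were called in the RA arm. The median change of the 10 members was 0.62 in the RA/CHIR arm and 1.65 in the RA arm, where the median of all genes tested was 0.00 and 0.01. Of all called genes, 57.5% were higher in RA/CHIR-16d and 80.4% in RA-16d, and the share in RA-16d was 69.9% after quantile normalization.

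**Figure D3:**
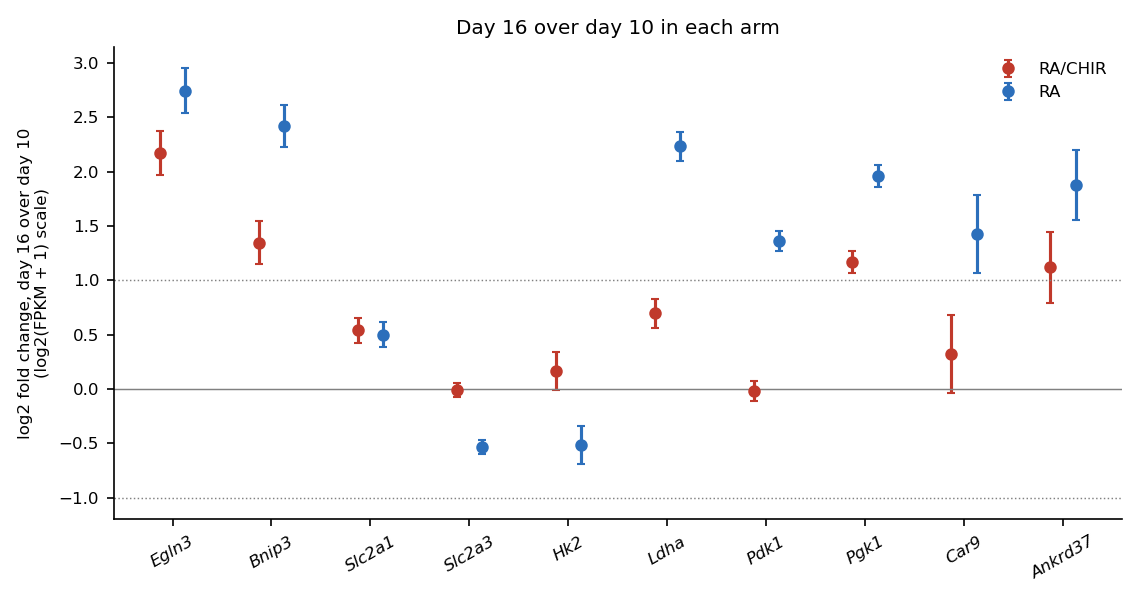
Log2 fold change ± SE of each gene at day 16 over day 10, on the log2(FPKM + 1) scale, in the RA/CHIR arm (red) and the RA arm (blue), with dotted lines at a change of 1 in size. Egln3, at 2.18 and 2.75, is the highest point of each arm, and Ldha and Pdk1 lie farthest apart between the arms.

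Egln3, the oxygen-sensing prolyl hydroxylase that HIF itself induces, had the largest change. It was at 10.1, 9.76 and 9.03 FPKM in RA/CHIR-16d, against 1.63, 1.26 and 1.18 FPKM in RA/CHIR-10d, a change of 2.18 ± 0.20 (adjusted p = 7.9e-10). In the RA arm it was at 15.2, 12.8 and 14.7 FPKM at day 16, against 1.40, 1.08 and 1.30 FPKM at day 10, a change of 2.75 ± 0.20 (adjusted p = 1.5e-11). The day-16 libraries lay several-fold above every day-4, day-7 and day-10 library of their arm. The ratio of mean FPKM was 7.09 in the RA/CHIR arm and 11.2 in the RA arm, larger than the log2 values give because the pseudocount of 1 is close to the day-10 level. Bnip3, the mitophagy receptor, was at 77.3, 73.3 and 77.0 FPKM in RA/CHIR-16d, against 29.9, 26.9 and 30.9 FPKM in RA/CHIR-10d (1.35 ± 0.19, adjusted p = 1.4e-06). In RA-16d it was at 116, 96.8 and 99.2 FPKM, against 14.8, 21.6 and 19.97 FPKM in RA-10d (2.42 ± 0.19, adjusted p = 7.7e-11). In each arm the day-16 libraries lay above those of every earlier day.

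Pgk1 was at 103, 108 and 105 FPKM in RA/CHIR-16d, against 46.9, 43.3 and 49.2 FPKM in RA/CHIR-10d (1.17 ± 0.10, adjusted p = 9.7e-11). In RA-16d it was at 183, 147 and 161 FPKM, against 40.3, 42.8 and 40.3 FPKM in RA-10d (1.96 ± 0.10, adjusted p = 5.2e-15), and its day-16 libraries overlapped those of RA-4d. A retrogene copy, Pgk1-rs7, reached at most 4.31% of the Pgk1 level in any library. Ldha was at 823, 799 and 822 FPKM in RA-16d, against 170.4, 176 and 170.3 FPKM in RA-10d (2.23 ± 0.13, adjusted p = 1.8e-13). In the RA/CHIR arm it was at 453, 454 and 442 FPKM at day 16, against 276, 275 and 281 FPKM at day 10. That change of 0.70 ± 0.13 (adjusted p = 7.0e-05) is past the adjusted p and under the fold required. Pdk1, the kinase that inhibits pyruvate dehydrogenase, was at 28.0, 26.0 and 26.4 FPKM in RA-16d, against 9.25, 10.3 and 9.83 FPKM in RA-10d (1.37 ± 0.09, adjusted p = 2.0e-12). In the RA/CHIR arm its libraries overlapped, at 14.1, 14.8 and 15.6 FPKM at day 16 and 16.0, 13.8 and 15.4 FPKM at day 10.

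Ankrd37 varied more between libraries, at 11.8, 6.77 and 4.32 FPKM in RA/CHIR-16d, against 3.48, 3.80 and 1.40 FPKM in RA/CHIR-10d (1.12 ± 0.33, adjusted p = 0.0048). That call was lost without RA/CHIR-16d replicate 1 (0.79) or RA/CHIR-10d replicate 3 (0.80). In the RA arm Ankrd37 was at 11.7, 8.36 and 14.6 FPKM at day 16, against 2.29, 3.35 and 1.62 FPKM at day 10 (1.88 ± 0.33, adjusted p = 3.3e-05). Car9 was at 4.95, 4.89 and 3.02 FPKM in RA-16d, against 0.281, 3.49 and 0.264 FPKM in RA-10d (1.43 ± 0.36, adjusted p = 0.0019). RA-10d replicate 2 made these groups overlap, and without it the change was 2.03. A fit of only the compared groups gave the same 1.43 without passing the adjusted p.

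Slc2a1, Slc2a3 and Hk2, which act in glucose uptake and its trapping, were called in neither arm. Slc2a1 was at 67.0, 60.9 and 62.7 FPKM in RA/CHIR-16d, against 47.4, 42.3 and 40.6 FPKM in RA/CHIR-10d, and at 69.8, 64.2 and 68.1 FPKM in RA-16d, against 48.2, 44.4 and 49.4 FPKM in RA-10d. These changes, 0.54 ± 0.11 and 0.50 ± 0.11, were past the adjusted p (0.00021 and 0.00072) and under the fold required. Slc2a3 was at 147, 146 and 139.6 FPKM in RA/CHIR-16d, within the 138 to 152 FPKM of RA/CHIR-10d. In RA-16d it was at 36.1, 32.1 and 36.2 FPKM, against 51.3, 50.3 and 50.5 FPKM in RA-10d, a change of -0.53 ± 0.07 (adjusted p = 2.3e-07) under the fold required. Hk2 was at 18.4, 14.6 and 20.8 FPKM in RA-16d, against 28.8, 26.3 and 22.6 FPKM in RA-10d, a change of -0.51 ± 0.17 (adjusted p = 0.019). The RA-16d libraries of both genes lay under every RA-10d library, while Egln3, Bnip3, Ldha and Pgk1 of the same libraries lay above.

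The test of the difference between the arms over this interval called 14.8% of all genes. Of the members, Ldha (-1.54 ± 0.19, adjusted p = 2.0e-07), Pdk1 (-1.38 ± 0.13, adjusted p = 1.9e-09) and Bnip3 (-1.07 ± 0.27, adjusted p = 0.0024) were called, each with a larger change in the RA arm. Bnip3 was under the fold required without RA-10d replicate 1 (-0.91) or RA-16d replicate 1 (-0.99). The difference for Egln3 was -0.57 ± 0.29 (adjusted p = 0.11) and for Ankrd37 -0.76 ± 0.46 (adjusted p = 0.20). Neither passed the test, which is no evidence that the arms were alike.

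Other genes of the pathway were read from lists of named members. Of 22 other HIF targets, 7 were higher and 1 was lower in RA/CHIR-16d than in RA/CHIR-10d, beside 14.8% of all genes called. Their median change was 0.55. In RA-16d, 15 were higher than in RA-10d and none was lower, beside 9.17% of all genes called, with a median of 1.42. Lox, the collagen cross-linking enzyme, changed most, by 3.96 ± 0.17 in the RA/CHIR arm and 5.43 ± 0.17 in the RA arm. The prolyl and lysyl hydroxylases of collagen, P4ha1 and Plod2, changed by 2.10 and 2.27 in the RA/CHIR arm. Fam162a (2.38), Ndrg1 (2.19) and Stc2 (1.86) followed Lox in the RA arm, and Ddit4, an inhibitor of mTOR signalling, fell by 1.83 in the RA/CHIR arm. Vegfa, the vascular growth factor, was at 125 ± 7.46 FPKM in RA/CHIR-16d and 108 ± 5.98 FPKM in RA/CHIR-10d, and at 153 ± 7.25 FPKM in RA-16d against 95.3 ± 3.23 FPKM in RA-10d, and was called in neither arm.

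Of the 18 other glycolytic enzymes tested, of 20 listed, 3 were higher and 2 lower in RA/CHIR-16d than in RA/CHIR-10d, beside 14.8% of all genes called. Their median change was 0.17. In RA-16d, 9 were higher than in RA-10d and none was lower, beside 9.17% of all genes called, with a median of 0.86. Those 9 covered the pathway from phosphofructokinase to pyruvate kinase, led by Pfkp (2.21), Aldoc (1.89), Tpi1 (1.84) and Aldoa (1.55), and Gapdh was at 975 ± 85.9 FPKM in RA-16d against 411 ± 11.6 FPKM in RA-10d (1.24 ± 0.17). In the RA/CHIR arm the genes called included Pgam2 (1.69) and Pklr (1.13), which were higher, and Eno2 (-1.37) and Ldhb (-1.32), which were lower. The difference between the arms was called for 2 of these enzymes upward and 9 downward, beside 14.8% of all genes called. It was -1.85 ± 0.24 for Gapdh and -3.10 ± 0.29 for Pfkp.

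**Figure D4:**
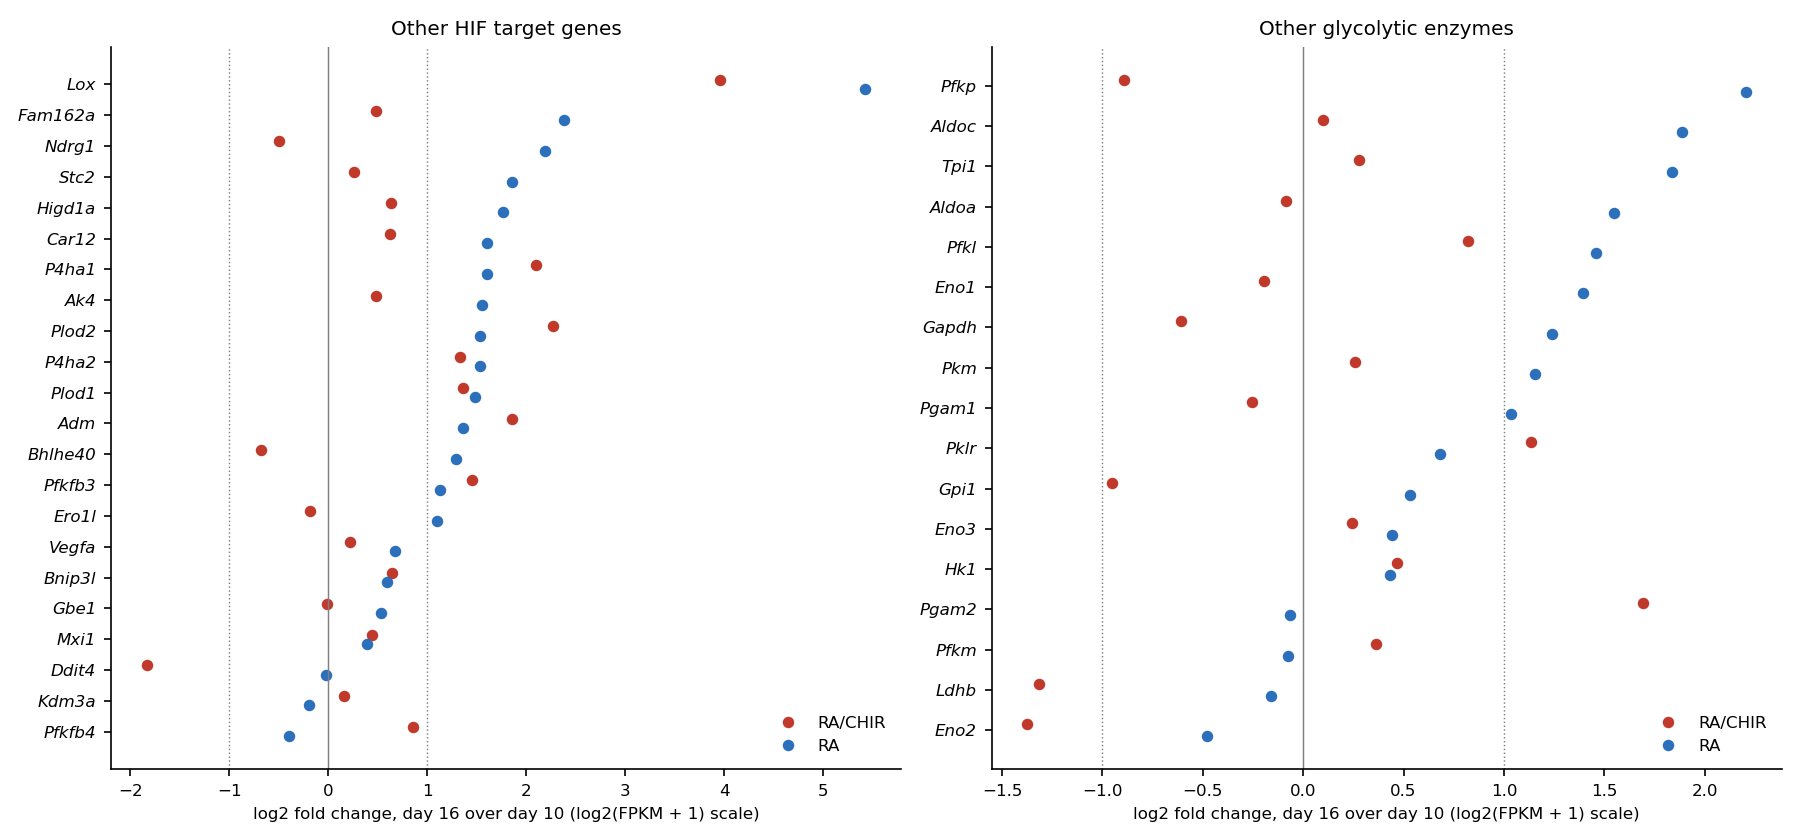
Log2 fold change at day 16 over day 10, on the log2(FPKM + 1) scale, of the 22 other HIF target genes (left) and 17 of the 18 other glycolytic enzymes tested (right), in the RA/CHIR arm (red) and the RA arm (blue), sorted by the RA arm. In the RA arm 15 of 22 and 9 of 17 points lie at or beyond 1 with none beyond -1, and the red points of the enzymes scatter around 0.

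Of the factors themselves, Epas1 was called and Hif1a was not. Hif1a, the subunit with the widest expression, was at 28.6 ± 0.947 FPKM in RA/CHIR-16d and 31.3 ± 0.229 FPKM in RA/CHIR-10d, and at 34.5 ± 2.98 FPKM in RA-16d and 30.01 ± 0.747 FPKM in RA-10d. Epas1 (HIF2A), the related subunit of endothelium and other tissues, was higher in both arms. It stood at 103 ± 4.68 FPKM in RA/CHIR-16d, against 31.6 ± 1.42 FPKM in RA/CHIR-10d (1.68 ± 0.05), and at 25.0 ± 0.891 FPKM in RA-16d, against 8.13 ± 0.466 FPKM in RA-10d (1.51 ± 0.05). Of the 13 genes of the sensing machinery, 2 were higher in the RA/CHIR arm, Epas1 and the prolyl hydroxylase Egln1 (1.55), beside 14.8% of all genes called. Epas1 was the 1 called in the RA arm, beside 9.17%. HIF subunits are controlled mainly through protein stability, which RNA levels do not measure.

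Markers of other cell types moved over the same interval. The smooth muscle markers summed to 417 to 429 FPKM in RA/CHIR-16d, against 90.2 to 98.2 FPKM in RA/CHIR-10d, and to 7079 to 7969 FPKM in RA-16d, against 1119 to 1134 FPKM in RA-10d. The 7 fibroblast markers summed to 414 to 449 FPKM in RA/CHIR-16d, against 24.7 to 26.3 FPKM in RA/CHIR-10d, and to 2345 to 3041 FPKM in RA-16d, against 203 to 219 FPKM in RA-10d. The 6 extraembryonic endoderm markers summed to 997 to 1096 FPKM in RA/CHIR-16d, against 571 to 588 FPKM in RA/CHIR-10d, and to 307 to 343 FPKM in RA-16d, against 207 to 218 FPKM in RA-10d. The sum of the 4 stem cell markers was lower at day 16. It was 174 to 184 FPKM in RA/CHIR-16d, against 206 to 215 FPKM in RA/CHIR-10d. Pou5f1, most of that sum, had a mean of 144 FPKM in RA/CHIR-16d, against 195 FPKM in RA/CHIR-10d. The other means were higher in RA/CHIR-16d, for Zfp42 (27.2 against 14.0 FPKM), Nanog (3.27 against 0.233 FPKM) and Sox2 (3.07 against 2.39 FPKM, with overlapping libraries). In the RA arm the sums were 7.44 to 9.52 FPKM in RA-16d, against 16.2 to 18.4 FPKM in RA-10d. Nanog was under 1 FPKM in both of these groups, and the means of Pou5f1, Zfp42 and Sox2 were lower in RA-16d. The SMC line held the highest sums of the smooth muscle and fibroblast lists, but not the highest mean of each marker. Cnn1 (562 against 451 FPKM), Myh11 (85.8 against 15.6 FPKM), Dcn (789 against 134 FPKM) and Lum (133 against 20.2 FPKM) were higher in RA-16d than in SMC. The remaining markers of these lists, Acta2, Tagln, Col1a1, Col1a2, Col3a1, Thy1 and Pdgfrb, were higher in SMC. Of the 10 members, Bnip3, Ldha and Pgk1 had their highest means in SMC. The other members called in RA-16d had lower means in SMC than in RA-16d. These were Egln3 (9.43 against 14.2 FPKM), Pdk1 (22.1 against 26.8 FPKM) and Car9 (0.652 against 4.29 FPKM). Ankrd37 (10.7 against 11.6 FPKM) was also lower, with overlapping libraries. The part of these cell types in the day-16 levels was not tested, and in bulk samples a change in the share of a cell type cannot be told from a change in RNA per cell.

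CHIR was set against retinoic acid alone on the same day. No member was called at day 4 or day 7, where 7.63% and 10.7% of all genes were called, 1 of 10 at day 10 (15.4% of all genes) and 2 of 10 at day 16 (21.3% of all genes). The call at day 10 and the larger of the calls at day 16 were both Slc2a3, the high-affinity transporter. It was at 144, 138 and 152 FPKM in RA/CHIR-10d, against 51.3, 50.3 and 50.5 FPKM in RA-10d (1.49 ± 0.07, adjusted p = 2.1e-16). At day 16 it was at 147, 146 and 139.6 FPKM in RA/CHIR-16d, against 36.1, 32.1 and 36.2 FPKM in RA-16d (2.02 ± 0.07, adjusted p = 2.2e-19). At day 4 it had been lower, at 209, 194 and 203 FPKM in RA/CHIR-4d, against 286, 289.5 and 292 FPKM in RA-4d, a change of -0.52 ± 0.07 (adjusted p = 4.0e-07) under the fold required. Its sign therefore turned between day 4 and day 7, when it was 0.76 ± 0.07.

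The second call at day 16 was Car9, at 0.364, 0.479 and 0.781 FPKM in RA/CHIR-16d, against 4.95, 4.89 and 3.02 FPKM in RA-16d (-1.76 ± 0.36, adjusted p = 0.00011). The groups did not overlap, and the levels are low in both. Several members passed the adjusted p without the fold required, and their signs changed with the day. At day 4, 8 of 10 passed it, and the share of all genes that did so is not given here. Bnip3, at 32.1, 25.2 and 26.9 FPKM in RA/CHIR-4d against 56.8, 54.9 and 58.4 FPKM in RA-4d, fell just short of the fold required with -0.996 ± 0.19 (adjusted p = 0.00014). Pgk1 (-0.88), Ankrd37 (-0.90), Hk2 (-0.61) and Ldha (-0.37) were also below RA-4d, and Slc2a1 (0.64) and Pdk1 (0.24) above it. At day 10, Ldha (0.68), Bnip3 (0.63) and Pdk1 (0.57) were above RA-10d. At day 16, Ldha (-0.86), Pdk1 (-0.81) and Pgk1 (-0.62) were below RA-16d, as were Egln3 (-0.51) and Bnip3 (-0.44), and Hk2 (0.87) was above it.

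**Figure D5:**
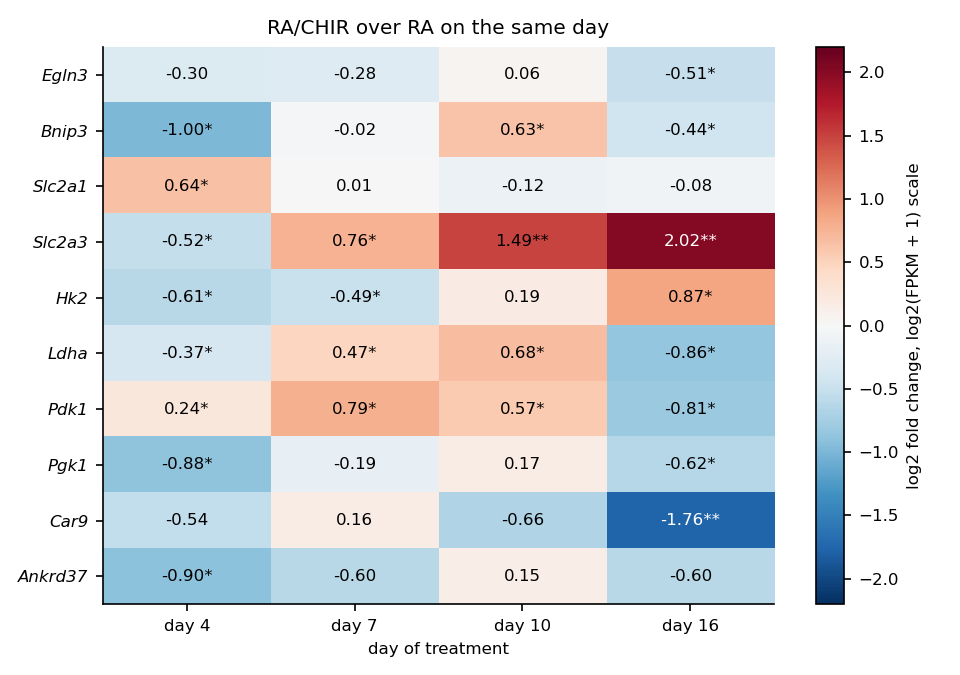
Log2 fold change of RA/CHIR over RA on each day for the 10 genes, on the log2(FPKM + 1) scale, with red for higher and blue for lower in RA/CHIR. A single star marks an adjusted p under 0.05, and 2 stars mark in addition a change of at least 1 in size, which Slc2a3 at days 10 and 16 and Car9 at day 16 reached.

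Of the 18 other glycolytic enzymes tested, 2 were higher and 10 lower in RA/CHIR-16d than in RA-16d, with a median of -1.16 beside -0.01 over all genes. In that comparison 21.3% of all genes were called. Pgam2 (2.85) was among the higher, and Ldhb (-1.85) and Aldoc (-1.75) were among the lower. Ldhb, the lactate dehydrogenase subunit of oxidative tissues, was at 48.4 ± 1.86 FPKM in RA/CHIR-16d and 177 ± 4.63 FPKM in RA-16d. The lactate carriers differed in direction. Slc16a1 was at 124 ± 0.935 FPKM in RA/CHIR-16d and 28.1 ± 0.569 FPKM in RA-16d (2.10 ± 0.07). Slc16a3, the carrier of glycolytic cells, was at 44.8 ± 4.41 FPKM in RA/CHIR-16d and 162 ± 5.17 FPKM in RA-16d (-1.83 ± 0.21). Of the other HIF targets, 3 of 22 were higher and 5 lower, beside the same 21.3% of all genes, with P4ha2 at 2.07 and Fam162a at -2.97. Of the 7 other glucose transporters tested, Slc2a4, the insulin-regulated transporter of muscle and fat, was the 1 called, at -3.37 ± 0.20, beside that 21.3%. Epas1 was at -2.02 ± 0.05 at day 4, 1.84 ± 0.05 at day 10 and 2.005 ± 0.05 at day 16.

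The reference lines differed from each other for 6 of the 10 members, with 29.7% of all genes called. Slc2a3 was at 325, 318 and 273 FPKM in XEN, against 4.33, 3.88 and 3.71 FPKM in SMC (5.94 ± 0.07, adjusted p = 5.0e-30). The other 5 were lower in XEN. Pdk1 was at 2.36, 2.43 and 2.18 FPKM in XEN, against 22.1, 20.4 and 23.9 FPKM in SMC (-2.80 ± 0.09, adjusted p = 5.1e-20). Ldha was at 348, 320.0 and 328 FPKM in XEN, against 2093, 2165 and 2065 FPKM in SMC (-2.66 ± 0.13, adjusted p = 6.4e-16), and Bnip3 at 24.8, 25.3 and 26.3 FPKM in XEN, against 166, 166 and 159 FPKM in SMC (-2.64 ± 0.19). Ankrd37 (-1.79) and Pgk1 (-1.56) followed. Egln3 overlapped between the lines, at 7.07, 9.21 and 9.36 FPKM in XEN and 9.50, 9.52 and 9.26 FPKM in SMC. Slc2a1 was at 153, 149 and 155 FPKM in XEN, against 112, 113 and 108 FPKM in SMC, a change of 0.45 under the fold required. Hif1a itself was lower in XEN (-1.53 ± 0.07) and Epas1 higher (4.57 ± 0.05).

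The balance of the transporters was opposite in the lines. Per length, the mean of Slc2a3 was above that of Slc2a1 in 9 of the 11 groups, mES and XEN among them, and below it in SMC and RA-16d. In RA/CHIR-4d, counted among the 9, the means were close, at 202 and 200 FPKM, and the libraries overlapped. In RA/CHIR-16d the mean of Slc2a3 (144 ± 3.93 FPKM) was above that of Slc2a1 (63.5 ± 3.12 FPKM), and in RA-16d that of Slc2a3 (34.8 ± 2.36 FPKM) was below that of Slc2a1 (67.4 ± 2.90 FPKM). Set directly against its line, RA/CHIR-16d had 3 of 10 members higher and 2 lower than XEN, with 23.2% of all genes called. Of all genes called, 62.7% were higher in RA/CHIR-16d, or 50.4% after quantile normalization. Pdk1 (2.25), Bnip3 (1.54) and Ankrd37 (1.27) were higher, and Slc2a1 (-1.25) and Slc2a3 (-1.07) lower, the last being at 147, 146 and 139.6 FPKM in RA/CHIR-16d and 325, 318 and 273 FPKM in XEN. After quantile normalization Ankrd37 (0.80) and Slc2a3 (-0.84) were under the fold required. RA-16d had 2 members higher than SMC and 1 lower, with 25.5% of all genes called. Slc2a3 (2.85 ± 0.07) and Car9 (1.66 ± 0.36) were higher and Ldha (-1.37 ± 0.13) was lower, or -0.75 after quantile normalization.

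The day-16 groups and the lines were also set against mES. RA/CHIR-16d had 5 members lower than mES and none higher, with 36.3% of all genes called, and RA-16d had 4 lower and 1 higher, with 36.7% called. Slc2a1, Slc2a3 and Pdk1 were lower in both, by 2.13, 1.62 and 2.53 on the log2 scale in RA/CHIR-16d and by 2.04, 3.64 and 1.72 in RA-16d. Bnip3 in RA-16d, at 116, 96.8 and 99.2 FPKM, lay above mES replicates 1 and 2 and below replicate 3, and Egln3 in RA-16d was likewise between them. Without mES replicate 3, the counts were 4 lower for RA/CHIR-16d, where Ldha dropped out at -0.99, and unchanged for RA-16d. XEN had 5 members lower than mES, with 33.1% of all genes called, and the same 5 without mES replicate 3. They were Pdk1 (-4.78), Ankrd37 (-2.26), Ldha (-1.75), Bnip3 (-1.45) and Pgk1 (-1.35). SMC had 4 lower and 1 higher, with 43.2% called. Slc2a3 (-6.49 ± 0.07), Pdk1 (-1.98), Slc2a1 (-1.33) and Hk2 (-1.14) were lower, and Bnip3 (1.19 ± 0.19) was higher. Bnip3 was under the fold required without mES replicate 1 (0.99) or replicate 2 (0.96) and after quantile normalization (0.88). Without mES replicate 3, Hk2 was no longer called (-0.93) and Ldha was (1.24).

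The members did not form a single pattern. Over the 11 group means of log2(FPKM + 1), the Pearson correlation between pairs of members had a median of 0.37 and ran between -0.50 for Bnip3 with Slc2a3 and 0.93 for Ldha with Pgk1. Of the 45 pairs, 9 reached 0.7, and those joined Bnip3, Ldha, Pgk1, Ankrd37, Egln3 and Pdk1 and never Slc2a1, Slc2a3, Hk2 or Car9. The share of pairs of all genes that reach 0.7 is not given here, so this count cannot be read as particular to the members. Each point of such a correlation is a group of 3 libraries that the genes share. Among the 11672 genes with at least 5 FPKM in a group, the gene most like Ldha was Pgk1 (r = 0.93), followed by Higd1a (0.93), a mitochondrial protein. The genes most like Slc2a3 were Gmfg (0.99), Arid3b (0.97) and Hic2 (0.96), and those most like Pdk1 were Slc22a18 (0.94), Pfkp (0.93) and Bvht (0.93). Slc2a1 ran closest to Nuf2 (0.96), a kinetochore protein, Egln3 to Ifrd1 (0.95) and Bnip3 to Tubb2a (0.94). These are descriptions over 11 points.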

How the data were processed

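Poly(A) RNA of 33 libraries was measured. Per the submitters' processing notes, reads were handled with Trimmomatic 0.33, HISAT2 2.0.4, Cufflinks and Cuffdiff on GRCm38, and parameters are not given in the sources used here. The deposited table holds FPKM as the authors computed it. Strand is not stated, so overlapping genes may share reads. Values were analysed as log2(FPKM + 1) by limma (version 3.58.1, R 4.3.3). The model held a coefficient for each of the 11 groups, used all 33 libraries (22 residual degrees of freedom) and let the prior variance follow the mean, for the 16508 genes with at least 1 FPKM in at least 3 libraries. P-values are two-sided, with Benjamini-Hochberg adjustment across the tested genes, separately for 19 comparisons. Calls need an adjusted p under 0.05 and a log2 change of at least 1 in size. The fit was tested on simulated data. Alternatives were TMM-type factors, quantile normalization, a pseudocount of 0.1, no filter, a filter of 5 FPKM, only the groups compared, no variance trend, a replicate block, leaving out each library and the adjusted p alone. The 10 genes, the lists, the comparisons and the rule for names were chosen with earlier results of these data known. The rule names all 10 genes, up to 4 called genes of each list with the largest change per comparison, and Hif1a, Epas1, Vegfa, Gapdh and Ldhb. Pklr was named outside it, after its values were seen. A glycolytic enzyme of the list is counted and not reported here by itself. For the genes most like a member it takes up to 3, by correlation of group means. Tables were handled with Python 3.11.15, numpy 2.4.6 and pandas 2.3.3.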

Additional observations from a re-analysis of the deposited data

Results flagged for a closer look

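The change over time differed between the arms for several of the 10 genes by limma's test of the difference itself. From day 4 to day 10 the RA/CHIR change exceeded the RA change by 1.62 for Bnip3, 2.01 for Slc2a3, 1.05 for Ldha and 1.05 for Pgk1 on the log2 scale. From day 10 to day 16 the same difference was -1.07 for Bnip3, -1.54 for Ldha and -1.38 for Pdk1. Bnip3 and Ldha were thus called in both intervals with opposite signs, and the day-10 libraries enter both tests. The value for Ldha up to day 10 was 0.998 after quantile normalization, under the fold required. Their group means at day 10 were 29.2 and 277 FPKM in RA/CHIR-10d, against 18.8 and 172 FPKM in RA-10d. The cause was not tested.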

How the results depend on the processing

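No change of a member that was past the adjusted p or at least 0.5 in size turned its sign under any alternative run. The replicate block changed 0 of the 150 such results, and left the number of members called in RA-16d against RA-10d at 7. Replicate numbers did not pair the libraries, by correlations of deviations from the group mean. For 11 of 33 libraries, the mean correlation with libraries of other groups was highest for their own number among the 3. Same-number correlations ran between -0.13 and 0.11. With the adjusted p alone, more members passed: 8 at day 4, 4 at day 7, 4 at day 10 and 8 at day 16 for RA/CHIR against RA, 7 for RA-4d, 8 for RA/CHIR-16d, 8 for RA-16d and 9 for XEN against mES, 7 for RA/CHIR-10d against RA/CHIR-4d, 9 for RA-16d against SMC, and 7 and 6 for the differences between the arms up to day 10 and after it. The share of all genes past the adjusted p alone is not set beside these counts, so they cannot be read as particular to the members. At day 4, quantile normalization or a pseudocount of 0.1 gave 1 call (Bnip3), and leaving out single libraries gave 0 to 2, the highest without RA/CHIR-4d replicate 1. At day 16 the filter of 5 FPKM gave 1, since Car9 was not tested. Leaving out libraries gave 5 to 8 for RA/CHIR-4d against mES, with 5 without mES replicate 3, and 5 to 8 for XEN against mES, with 8 without mES replicate 1. Quantile normalization gave 3 for RA/CHIR-16d against XEN. It moved the median of all genes by 0.14 for XEN against mES, by -0.15 for RA/CHIR-16d against XEN and by -0.10 for RA-16d against mES. Values under about 1 FPKM, as for Car9, rest on few fragments, and their differences depend on the pseudocount.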
